A study of Mus musculus with 2 samples.

Results

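The 9 genes described here build inhibitory glycine signalling and set the chloride gradient on which it acts. They are the glycine receptor subunit genes Glra1, Glra2, Glra3 and Glrb, the scaffold gene Gphn, the glycine transporter genes Slc6a5 and Slc6a9, and the chloride cotransporter genes Slc12a2 and Slc12a5. They were taken by gene symbol, with no threshold on a measured value, from the 45578 genes of the deposited table, and each symbol matched 1 Ensembl gene. Their footprints were counted in whole brains of 2 control mice at postnatal day 5. Both animals had the genotype Smn+/-; SMN2tg/0, that is, 1 disrupted copy of mouse Smn together with a human SMN2 transgene, on an FVB background. They form a single group (n = 2, biological replicates 1 and 2), so no genotype, age or treatment was compared, and a carrier of both mouse Smn copies was not analysed here. Sex and litter are not given in the labels used here.

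The measurement was ribosome profiling of polysomes. Lysates of frozen brain were separated on a sucrose gradient, the polysomal fractions were digested with RNase I, and protected fragments of 25 to 35 nucleotides were sequenced. A footprint marks a ribosome on an mRNA, so the level of a gene combines how much mRNA it has and how densely that mRNA is occupied. Levels are given as CPM, the footprints of a gene scaled to the total of its library, and as footprint density, which is CPM per kilobase of the gene's longest annotated coding sequence (CDS). Only the density is used to compare genes with each other.

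Glycine receptors are pentameric chloride channels made of alpha subunits, which bind glycine, and the beta subunit, which ties the receptor to the gephyrin scaffold under inhibitory synapses. Receptors rich in the alpha 2 subunit are typical of the immature nervous system, and the alpha 1 subunit replaces it in much of the adult brainstem and spinal cord. Whether opening such a channel hyperpolarises or depolarises a neuron depends on intracellular chloride, which the cotransporter NKCC1 (Slc12a2) loads into cells and KCC2 (Slc12a5) extrudes. KCC2 is largely restricted to neurons and is known to increase after birth in rodents, whereas NKCC1 is also made by glia, vascular cells and choroid plexus.

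The table held 1866831 footprints in replicate 1 and 5261878 in replicate 2, a ratio of 2.82, so values from replicate 2 have the smaller counting error. With 3 counts as the limit, a gene at 0 could have a level of at most 1.61 CPM in the shallower library and 0.570 CPM in the deeper one. Smn1, the gene disrupted in these animals, had 71 and 253 footprints, in the order replicate 1 and replicate 2 that is used throughout; reads from the human transgene were not separated from it. The tissue label was checked against marker genes: the 5 neuronal markers (Snap25, Syt1, Tubb3, Rbfox3 and Stmn2) summed to 3511 and 2391 CPM and the 5 astrocyte markers to 1283 and 1233 CPM. Choroid plexus markers summed to 647 and 356 CPM, oligodendrocyte lineage markers to 659 and 890 CPM, and vascular and meningeal markers to 749 and 619 CPM. None of these 25 genes was at 0 in either library.

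The KCC2 gene carried far more ribosomes than the NKCC1 gene. Slc12a5 (ENSMUSG00000017740) had 917 footprints in replicate 1 and 2437 in replicate 2, or 491 and 463 CPM. Its density over a CDS of 3417 nucleotides was 144 (95% Clopper-Pearson interval 135 to 153) and 136 (130 to 141), with a mean of 140 ± 5.81 (SD, n = 2). This was the highest density of the 9 genes, at percentile 89.2 of the 13317 coding genes that averaged 10 or more footprints, whose median density was 23.5. Slc12a2 (ENSMUSG00000024597) had 107 and 332 footprints, or 57.3 and 63.1 CPM. Its density over a CDS of 3621 nucleotides was 15.8 (13.0 to 19.1) and 17.4 (15.6 to 19.4), with a mean of 16.6 ± 1.13 (SD, n = 2), at percentile 40.5. The replicate values of each gene lay close together and the genes did not overlap.

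Per CDS nucleotide, Slc12a5 exceeded Slc12a2 by 9.08-fold in replicate 1 (95% interval 7.43 to 11.2) and by 7.78-fold in replicate 2 (6.93 to 8.75). The ratio of Slc12a2 to Slc12a5 had a geometric mean of 0.119, or -3.07 ± 0.16 on the log2 scale (SD, n = 2). The gap between the genes was thus many times the spread between the replicates. In all, 5 such ratios between members were formed, and Fisher's exact test, two-sided, asked of each whether it differed between the libraries. For Slc12a2 over Slc12a5 this exact test did not pass (p = 0.208, and 0.208 after Benjamini-Hochberg adjustment over the 5 ratios). Using the highest coding transcript alone raised the ratio to 0.418, because footprints on the other Slc12a5 transcripts are then left out and the table holds only 1 Slc12a2 transcript. In whole tissue, fewer cells that express a gene and less of its RNA per cell cannot be told apart, and this holds for every level below.

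The other cotransporters of the SLC12 family set the scale for this pair. Slc12a5 took 71.0% ± 2.28 of the summed density of the 9 family genes (SD, n = 2) and Slc12a2 took 8.46% ± 0.654. Slc12a9, a family member of less certain transport function, had a density of 15.2 and 15.3, below that of Slc12a2 in both libraries, with counting intervals that overlapped. The potassium-chloride cotransporter genes Slc12a4 (9.68 and 12.0) and Slc12a7 (4.12 and 4.09) were lower. Slc12a8 had 4 and 14 footprints. Slc12a1 and Slc12a3, the cotransporters of kidney tubules, had no footprint in either library.

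**Figure D1:**
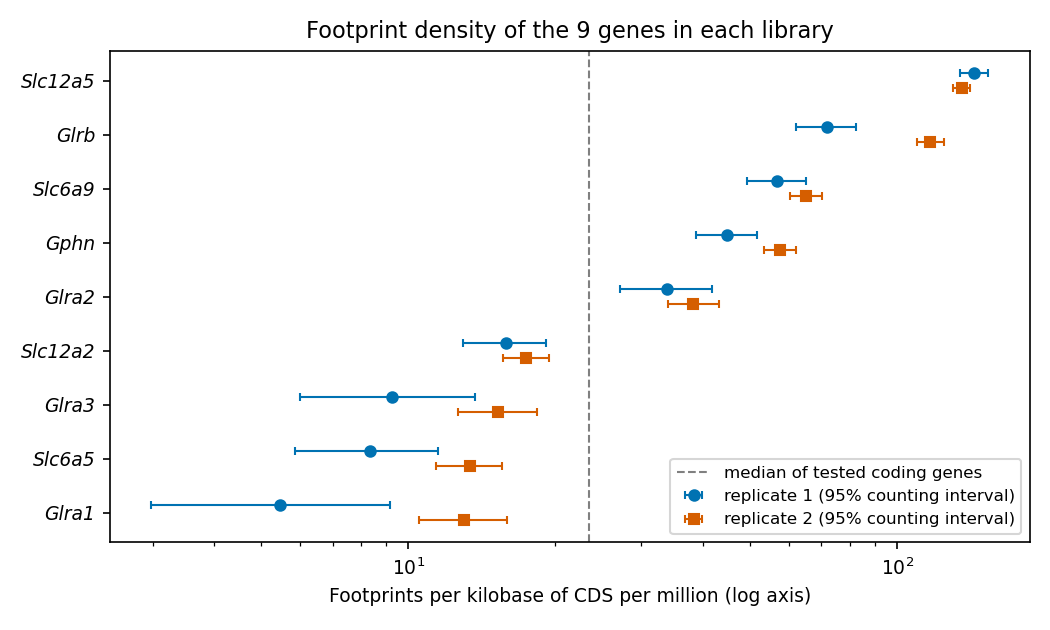
Footprint density (footprints per kilobase of CDS, scaled to the library total as CPM, log axis) of the 9 genes in replicate 1 and replicate 2, with 95% Clopper-Pearson counting intervals; the dashed line is the median of 13317 coding genes. Slc12a5 lies highest at 144 and 136, Slc12a2 lies below the median at 15.8 and 17.4, and Glra1 is lowest.

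Among the receptor subunits, the beta subunit gene had the highest density and alpha 2 led the alpha subunits. Glrb (ENSMUSG00000028020) had 200 and 918 footprints, a density of 71.9 (62.2 to 82.5) and 117 (110 to 125) and a mean of 94.4 ± 31.9 (SD, n = 2). Replicate 2 was clearly the higher library for this gene. Glra2 (ENSMUSG00000018589) had 86 and 274 footprints and a density of 33.9 (27.1 to 41.9) and 38.3 (33.9 to 43.1), with a mean of 36.1 ± 3.12 (SD, n = 2), and its replicates overlapped within counting error. Glra3 (ENSMUSG00000038257), for the alpha 3 subunit, had 25 and 116 footprints and a density of 9.28 (6.01 to 13.7) and 15.3 (12.6 to 18.3). Glra1 (ENSMUSG00000000263) had 14 and 94 footprints and a density of 5.46 (2.98 to 9.16) and 13.0 (10.5 to 15.9). Its mean, 9.23 ± 5.33 (SD, n = 2), rests on few footprints, and replicate 1 alone gave 5.46.

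Of the summed density of the 3 alpha genes, Glra2 held 69.7% in replicate 1 and 57.5% in replicate 2, a mean of 63.6% ± 8.60 (SD, n = 2). Glra3 held 19.1% and 22.9%, and Glra1 held 11.2% and 19.5%. Glra2 was therefore the leading alpha gene in both animals, while Glra3 and Glra1 did not separate: their counting intervals overlapped in each library. The ratio of Glra1 to Glra2 was 0.161 (0.0845 to 0.285) and 0.339 (0.266 to 0.430), with a geometric mean of 0.234, or -2.10 ± 0.76 on the log2 scale. It was below 1 in both libraries. Its difference between the libraries had p = 0.0157 in Fisher's exact test and 0.0787 after adjustment over the 5 ratios, so it did not pass. With the highest Glra1 transcript alone the ratio was 0.0888, since the footprints of Glra1 are spread over 3 similar transcripts.

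Glrb exceeded the 3 alpha genes together. Its density was 1.48 times their sum in replicate 1 (1.18 to 1.86) and 1.76 times in replicate 2 (1.57 to 1.97), a geometric mean of 1.61, with p = 0.197 and an adjusted p of 0.208 for a difference between the libraries in Fisher's exact test. This order depends on which transcripts are counted. With protein-coding transcripts only the ratio was 1.13, and with the highest coding transcript of each gene alone it reversed to 0.553. The reason lies in the table: Glrb footprints are divided over 6 transcripts, and Glra2 has 1.

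Gephyrin, which anchors the receptors through the beta subunit and also makes molybdenum cofactor in many tissues, lay between these subunits. Gphn (ENSMUSG00000047454) had 194 and 703 footprints and a density of 44.8 (38.7 to 51.6) and 57.6 (53.4 to 62.0), with a mean of 51.2 ± 9.05 (SD, n = 2). Per CDS nucleotide it had 0.624 (0.509 to 0.764) of the Glrb density in replicate 1 and 0.492 (0.446 to 0.544) in replicate 2. The geometric mean was 0.554, and the difference between the libraries had p = 0.0366 and an adjusted p of 0.0916 in Fisher's exact test. The ratio was 0.853 over protein-coding transcripts and 0.984 with the highest coding transcript alone, so the excess of Glrb over Gphn rests in part on Glrb transcripts annotated as targets of nonsense-mediated decay.

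The glial glycine transporter gene had a higher density than the neuronal one. GlyT1, the product of Slc6a9, is mainly glial and clears glycine from the extracellular space, and GlyT2, the product of Slc6a5, reloads the terminals of glycinergic neurons, which lie mostly in brainstem and spinal cord. Slc6a9 (ENSMUSG00000028542) had 203 and 656 footprints and a density of 56.8 (49.3 to 65.2) and 65.1 (60.2 to 70.3), with a mean of 61.0 ± 5.89 (SD, n = 2). Slc6a5 (ENSMUSG00000039728) had 37 and 167 footprints and a density of 8.34 (5.87 to 11.5) and 13.4 (11.4 to 15.5), with a mean of 10.8 ± 3.55 (SD, n = 2). The genes did not overlap in either library. The ratio of Slc6a9 to Slc6a5 was 6.81 (4.78 to 9.95) and 4.88 (4.11 to 5.81), with a geometric mean of 5.76, p = 0.0944 and an adjusted p of 0.157 for the difference between the libraries in Fisher's exact test. It was 2.06 with the highest coding transcript alone and 9.43 when the longest transcript replaced the CDS as the length, because an annotated Slc6a5 transcript has a 3′ untranslated region of 4432 nucleotides.

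**Figure D2:**
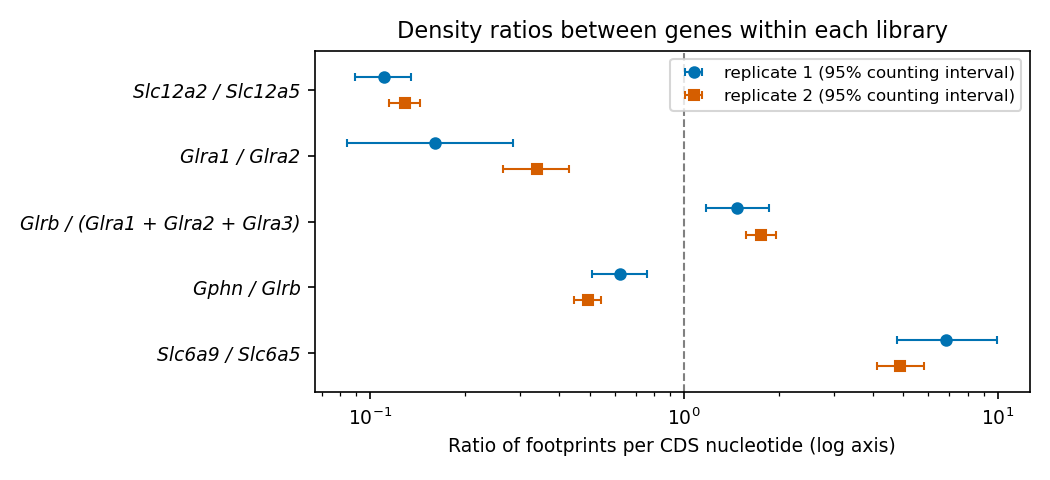
Ratio of footprints per CDS nucleotide (log axis) for 5 pairs of genes, in replicate 1 and replicate 2, with 95% counting intervals; the dashed line marks equal density. Slc12a2 over Slc12a5 lies at 0.110 and 0.129, and each ratio is on the same side of 1 in both libraries.

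Ordered by mean density, the genes ran Slc12a5, Glrb, Slc6a9, Gphn, Glra2, Slc12a2, Glra3, Slc6a5 and Glra1, and each gene stood above the next in both libraries. The replicate ranges were separate for 5 of the 8 neighbouring pairs. Slc6a9 and Gphn overlapped, as did Glra3 with Slc6a5 and Slc6a5 with Glra1. Slc12a2 and Glra3 were separate by their replicate ranges, at 15.8 to 17.4 against 9.28 to 15.3, but their counting intervals overlapped in each library. The counting intervals of Glrb and Slc6a9, and those of Gphn and Glra2, overlapped in replicate 1 but not in replicate 2. Of the 9 genes, 5 had a density above the median coding gene. The order below Slc12a5 depends on which transcripts are counted. With the highest coding transcript alone the densities of Slc12a5, Glra2 and Glrb were 39.7, 36.1 and 27.2. Slc12a5 still came first, but Glra2 then stood above Glrb. Slc6a9 fell to 11.7 in that setting, below Gphn at 26.0 and Slc12a2 at 16.6. With protein-coding transcripts only, Slc12a5 came first at 121, and Gphn at 51.2 stood just above Slc6a9 at 50.7. Glra3 at 8.16 was then lowest, below Slc6a5 at 10.8 and Glra1 at 9.23.

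The table also shows on which annotated transcripts these footprints were placed. Slc12a2, Glra1, Glra2, Gphn and Slc6a5 have only protein-coding transcripts annotated, so all their footprints lay on such transcripts by construction. For Slc12a5 the share on protein-coding transcripts was 86.4% ± 0.0347 (SD, n = 2), for Slc6a9 83.2% ± 2.81, for Glra3 66.8% ± 1.76 and for Glrb 65.0% ± 1.42. Over all genes it was 75.5% ± 1.09. Transcripts annotated as targets of nonsense-mediated decay held 33.5% of Glrb footprints in replicate 1 (27.0 to 40.5) and 30.7% in replicate 2 (27.7 to 33.8), where the share over all genes was 3.70% and 4.24%. Most of these lay on Glrb-004, with 58 and 241 footprints, a transcript of 2979 nucleotides with a CDS of 177 and a 3′ untranslated region of 2675. That region is annotated downstream of an early stop, and how much of it is exon sequence shared with the coding Glrb transcripts was not analysed here. Glra3-002, an annotated processed transcript without a CDS, held 32.0% and 34.5% of Glra3 footprints.

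Slc12a5 footprints were divided almost evenly over its 3 long coding transcripts. Slc12a5-001, with a CDS of 3348 nucleotides, held 27.8% and 27.9%. Slc12a5-006, with a CDS of 3417, held 28.1% and 26.8%, and Slc12a5-007, with a CDS of 3402, held 26.1% and 27.2%. The Gphn transcripts Gphn-201 and Gphn-202, whose CDS lengths are 2310 and 2319, had 93 and 101 footprints in replicate 1 and 354 and 349 in replicate 2. Even shares of this kind describe how fragments were assigned among similar transcripts and were not read as isoform levels.

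**Figure D3:**
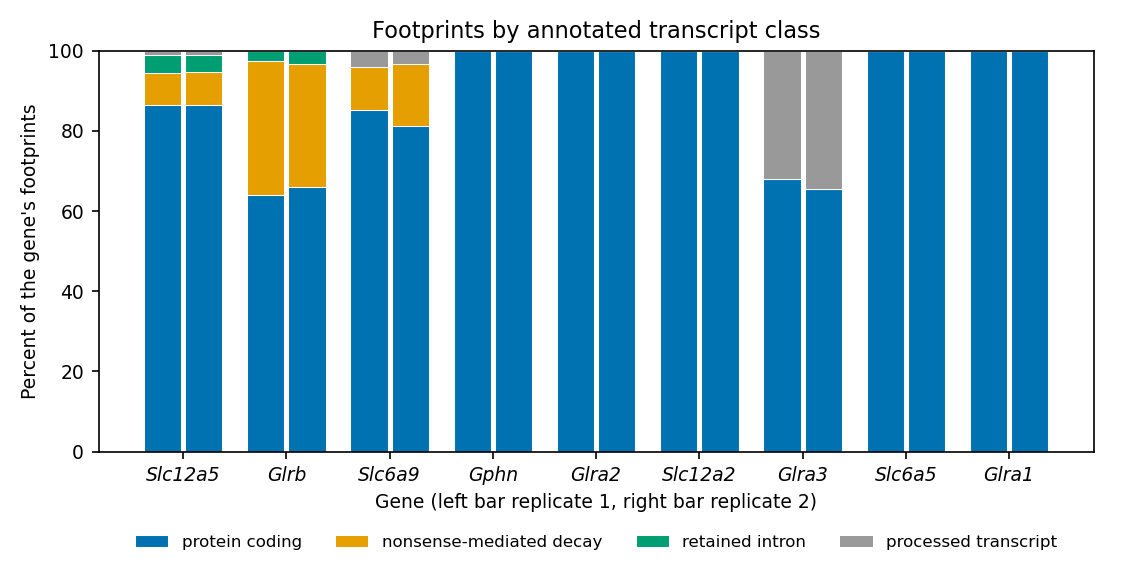
Percent of each gene's footprints on annotated transcript classes, with replicate 1 as the left bar and replicate 2 as the right bar. Glrb and Glra3 have the lowest protein-coding shares, 65.0% and 66.8% on average. For 5 genes only coding transcripts are annotated, so every footprint lies on them.

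With a single group, the remaining comparison is between its libraries. A two-sided exact binomial test against TMM-scaled library sizes, with Benjamini-Hochberg adjustment over 16427 genes, called 3 of the 9 genes at an adjusted p under 0.05, beside 17.4% of all genes tested. It compares 2 libraries and covers counting noise only. Glra1 was higher in replicate 2, at 7.50 CPM (4.10 to 12.6) against 17.9 CPM (14.4 to 21.9), with a log2 ratio of 1.08 (adjusted p = 0.0315, exact test). Glrb was also higher in replicate 2, at 107 CPM (92.8 to 123) against 174 CPM (163 to 186), with a log2 ratio of 0.58 (adjusted p = 3.14e-06, exact test). Higher calls made up 5.95% of all genes tested and lower calls 11.5%. Slc12a5 was lower in replicate 2 with a log2 ratio of -0.21 (adjusted p = 0.00223, exact test), but with library totals in place of TMM the ratio was -0.08 and the adjusted p 0.321. All 3 calls were lost with edgeR's exact test and a common dispersion (smallest adjusted p = 1), at log2 ratios of 1.12 for Glra1, 0.58 for Glrb and -0.21 for Slc12a5. Over all genes that edgeR test called 11, all of them higher in replicate 2, so none of the lower calls given below held in it. With the highest transcript alone under the exact binomial test, Glra1 (log2 ratio 1.30, adjusted p = 0.209) and Slc12a5 (log2 ratio -0.13, adjusted p = 0.562) also lost their calls, on fewer counts.

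The other 6 genes did not pass with TMM scaling. Glra3 had a log2 ratio of 0.58 (adjusted p = 0.212, exact test) and Slc6a5 one of 0.54 (adjusted p = 0.139, exact test), from few footprints. Gphn stood at 0.24, Slc6a9 at 0.07, Glra2 at 0.05 and Slc12a2 at 0.01. With library totals, which raise the ratios by up to 0.13, Gphn (adjusted p = 0.0142, exact test) and Slc6a5 (adjusted p = 0.0458, exact test) were called as higher in replicate 2. The median log2 ratio of the 9 genes was 0.24, beside 0.01 over all genes tested. Of the 9 genes 8 lay above 0, beside 50.5% of all genes tested, and Slc6a9, Glra2 and Slc12a2 were only slightly above it. Across all genes the scaling decides the balance of directions: 34.2% of calls were higher in replicate 2 with TMM and 60.7% with library totals.

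Over all coding genes the median log2 ratio was 0.21 in the lowest decile of density and -0.27 in the highest, so each gene was set beside genes of its own density. The decile of coding genes that holds Glra1 and Slc6a5 had a median log2 ratio of 0.09 and 7.14% of its genes called. In the decile that holds Glrb and Slc12a5 the median was -0.11 and 35.2% were called. Glra1 and Glrb thus lay above the median of their density class, and Slc12a5 lay below the same median as Glrb.

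Among markers of hindbrain position, only 3 of the 7 Hox genes listed had enough counts to test. Of these 3, 2 were called higher in replicate 2, as Glra1 and Glrb were, beside 5.95% of all genes tested. The 7 Hox genes listed (Hoxa2, Hoxa3, Hoxb2, Hoxb3, Hoxb4, Hoxc4 and Hoxd3), which are expressed in hindbrain and spinal cord, had a summed level of 6.96 CPM in replicate 1, against 34.0 CPM in replicate 2. Of these, Hoxa2, Hoxb2 and Hoxb4 were at 0 in replicate 1, the shallower library, and had 7, 2 and 17 footprints in replicate 2. Hoxc4 had 8 and 82 footprints, with a log2 ratio of 1.63 (adjusted p = 0.00239, exact test), Hoxb3 had 2 and 38 (adjusted p = 0.0192, exact test), and Hoxd3 had 2 and 21 and did not pass (adjusted p = 0.268, exact test). The part of this difference in the Glra1 and Glrb values, and in that of Slc6a5, which did not pass, was not tested. Of the 5 neuronal markers, 4 were called lower in replicate 2 (3 with library totals), as Slc12a5 was, and their median log2 ratio was -0.55. All 4 lie in the highest decile of density, where 58.3% of genes were called and the median was -0.27. Choroid plexus markers, relevant to Slc12a2, had 1 call of 5, beside 17.4% of all genes tested. This was Ttr, at 582 and 277 CPM. The others did not pass and were split, with Folr1 (log2 ratio 0.40) and Otx2 (0.33) above 0 and Clic6 (-0.37) and Kl (-0.26) below it. Slc12a2 itself was not called, at 57.3 and 63.1 CPM, and the part of choroid plexus cells in its level was not tested.

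**Figure D4:**
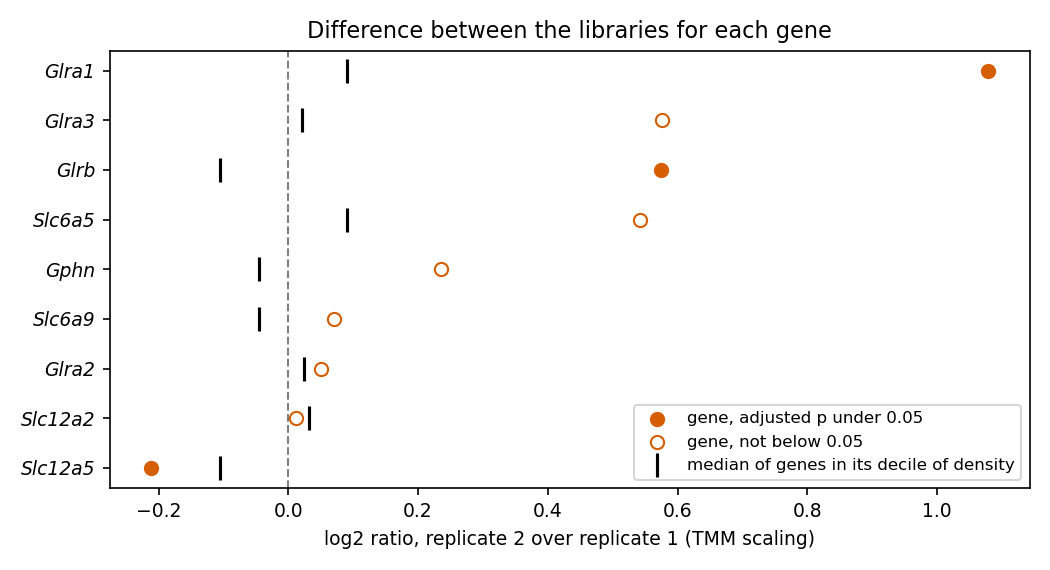
Log2 ratio of replicate 2 over replicate 1 (TMM scaling) for each gene, filled where the exact binomial test gave an adjusted p under 0.05; black ticks are the median of coding genes in the same decile of density. Glra1 (1.08) and Glrb (0.58) are called higher and Slc12a5 (-0.21) lower in replicate 2, the last of these not with library totals.

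The wider machinery was described with 7 lists holding 44 further genes, of which 40 were tested. Of these, 13 were called lower and 2 higher in replicate 2, beside 11.5% and 5.95% of all genes tested, with a median log2 ratio of -0.10. The share called rises with density over all genes, from 7.14% in the third decile to 58.3% in the highest. With library totals 10 were called lower and 6 higher. The 4 tested members of the SLC12 family outside the pair gave 0 calls in the exact binomial test with TMM and with library totals, and 0 at an unadjusted p under 0.05 with TMM. Of the 8 genes of the kinase pathway that activates NKCC1 and inhibits KCC2, which include kinases and their partner proteins, 1 was called (2 with library totals, both higher in replicate 2), beside 17.4% of all genes. This was Wnk3, at 33.7 and 55.3 CPM with a log2 ratio of 0.58 (adjusted p = 0.0213, exact test). The partner protein gene Cab39 had the highest density of this list, 124 and 148, and Wnk4 the lowest, 1.61 and 1.35. Stk39, which encodes the kinase SPAK, had a density of 38.1 and 49.7, and its relative Oxsr1 one of 26.7 and 35.2.

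Inhibitory synapse organisers showed 4 calls of 7, all lower in replicate 2, beside 11.5% of all genes called lower. Dynll1, Dynll2 and Pfn2 lie in the highest decile of density, with its 58.3% of genes called and median log2 ratio of -0.27. Nlgn2, the adhesion molecule of inhibitory synapses, had 526 and 1125 footprints, a density of 112 and 85.1 and a log2 ratio of -0.52 (adjusted p = 9.25e-10, exact test). The dynein light chain genes Dynll1 (log2 ratio -0.41) and Dynll2 (-0.34) and the profilin gene Pfn2 (-0.48), whose products bind gephyrin among many partners, were the others, and Dynll1 had the highest density of the list at 1240 and 1019. Iqsec3, the lowest, had 12.8 and 14.2. These 4 stayed called with library totals.

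Genes that make, pack and remove inhibitory transmitter were called lower in replicate 2 for 4 of 6, beside 11.5% of all genes, and the other 2 did not pass. Slc32a1, the vesicular transporter that loads both GABA and glycine, had 224 and 147 CPM and a log2 ratio of -0.73 (adjusted p = 2.89e-14, exact test). Gad2, a GABA-synthesising enzyme, had a log2 ratio of -0.48, and the GABA transporter gene Slc6a11 had -0.64. Slc7a10, a transporter of small neutral amino acids including glycine, had the lowest density of this list, 34.0 and 39.3. All 4 calls held with library totals, and none held with edgeR's exact test and a common dispersion. In the binomial test the vesicular transporter gene was thus lower in replicate 2. Slc6a5 stood at 31.7 CPM in replicate 2 against 19.8 CPM in replicate 1, and did not pass with TMM scaling (adjusted p = 0.139, exact test).

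Of the 6 genes of glycine metabolism, 3 were called lower in replicate 2, beside 11.5% of all genes. Gcsh, a glycine cleavage system protein gene, had 59.5 and 42.4 CPM with a log2 ratio of -0.61 (adjusted p = 0.00372, exact test) and the highest density of its list, 116 and 82.6. Gldc, the glycine decarboxylase of the same system, had -0.61, and Shmt2, the mitochondrial enzyme that interconverts serine and glycine, had -0.48. With library totals only Gcsh stayed called. Shmt1, the cytosolic counterpart, had the lowest density, 7.46 and 7.41.

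Other chloride and bicarbonate proteins gave 1 call in each direction among 6 tested genes, beside 5.95% of all genes called higher and 11.5% called lower. With library totals they gave 2 higher and 0 lower. Slc4a10, a sodium-dependent bicarbonate transporter, had 116 and 183 CPM and a log2 ratio of 0.52 (adjusted p = 1.4e-05, exact test). Slc4a3, an anion exchanger, had -0.29 and lost its call with library totals. Car2, a carbonic anhydrase, had the highest density of the list, 97.1 and 85.4, and the chloride channel gene Clcn2 the lowest, 11.4 and 9.20. Of the 3 tested genes that make molybdenum cofactor, the pathway that gephyrin completes, 1 was called lower, beside 11.5% of all genes. This was Mocs3, with 69 and 105 footprints and a density of 26.7 and 14.4 (adjusted p = 0.00021, exact test). Mocs2 had a density of 84.6 and 122, the highest of these, and Mocs1 the lowest at 3.64 and 4.77.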

How the data were processed

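Per the file headers, the authors deposited 1 table of footprint counts per Ensembl transcript, not normalized, with annotated lengths; each library has its own column and none was pooled. The submitters' processing notes name Trimmomatic 0.36, Bowtie2 2.2.6, SAMtools and GRCm38.p4, without roles; strand use, duplicate handling and the assignment of fragments that match several transcripts are not given in the sources used here. Over 49 pairs of transcripts of a gene with identical lengths, the mean squared difference over the sum of counts was 1.07, where counting a fragment on both would give 0, so counts were summed per gene. Near-identical relatives can still exchange fragments. Matched RNA was not analysed here, so levels are not translational efficiencies.

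The members and gene lists were chosen with earlier results of these data known. All 9 members are described; from each of the 7 lists, the text names the tested genes of highest and lowest density and every called gene, except a few that are not reported here, and Stk39, Oxsr1, the untested and other SLC12 genes were added by function. Likeness of pattern between genes was not measured, as 2 libraries of 1 group give none. The tests took genes averaging 10 or more counts; log2 ratios use a prior of 0.5 CPM. Intervals are 95% Clopper-Pearson; those of ratios come from the share of counts within a pair. They cover counting error only, and PCR copies are not independent molecules. TMM factors came from edgeR 4.0.16 (0.957 and 1.04) and size factors from DESeq2 1.42.0; with no contrast in the design, no quasi-likelihood test was run. Exact tests used SciPy 1.17.1. The binomial script was tested on simulated data.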

Additional observations from a re-analysis of the deposited data

How the results depend on the processing

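Summing protein-coding transcripts only gave ratios of 0.138 for Slc12a2 over Slc12a5, 1.13 for Glrb over the alpha genes and 0.853 for Gphn over Glrb. The highest coding transcript alone gave 0.418, 0.553 (reversed) and 0.984 for these, 0.0888 for Glra1 over Glra2 and 2.06 for Slc6a9 over Slc6a5; it leaves out footprints on other transcripts of a gene. Transcript length in place of CDS length gave 0.792 for Gphn over Glrb and 9.43 for Slc6a9 over Slc6a5. Without each replicate in turn, the ratios ranged from 0.110 to 0.129 (Slc12a2 over Slc12a5), 0.161 to 0.339 (Glra1 over Glra2), 1.48 to 1.76 (Glrb over alpha), 0.492 to 0.624 (Gphn over Glrb) and 4.88 to 6.81 (Slc6a9 over Slc6a5). With 2 replicates these lie within 1 SD of the mean by construction. The remaining 5 ratio values moved by less than 1 SD of the replicates. Genes called between the libraries numbered 2861, against 1444 with the highest transcript alone, which tests 15353 genes on fewer counts, and 11 with edgeR's exact test and a common dispersion (721 at an unadjusted p under 0.05). The matching numbers of members were 3, 1 (Glrb) and 0 (1 at an unadjusted p under 0.05). That dispersion was estimated from the libraries it then compared. No log2 ratio of a member changed sign in the settings tried. No paired analysis was possible because the study has 1 group. Depth limits Glra1, with 14 footprints in replicate 1, most.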
